A study of Saccharomyces cerevisiae with 12 samples.

Results

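Ribosome footprints, the short stretches of mRNA that a translating ribosome shields from nuclease, were compared between budding yeast (Saccharomyces cerevisiae) cultures pre-treated with radicicol and untreated cultures. The genes described are all identifiers of the whole-series count table with enough footprint counts to be tested, which were 5083 of 7130. Of the remaining 2047 identifiers, 1193 had a count of 0 in all 6 footprint libraries and 854 had a few counts, and together these 2047 held 0.14% of the footprint counts. At the edge of that limit on counts, MGP12 was tested with 15, 5 and 9 counts pre-treated and 6, 10 and 16 untreated, and CIN1 was left out with 14, 9 and 11 counts pre-treated and 10, 9 and 7 untreated. The pre-treated group had spent a night in 10 µM radicicol and the untreated group a night without it, and each group held 3 libraries. Both were then diluted to an OD600 of 0.001 and grown for 24 h before harvest, so the footprints report on cells harvested a day after the drug. The cultures came from 3 colonies. Whether libraries of the 2 groups with the same number share a colony is not stated, so p-values measure the spread between these libraries, which may be partly technical. Strain, medium and the density at harvest are not given in the sources used here, and reads on plasmid-borne reporter features were counted in every library of both groups.

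Sequencing of footprints counts ribosomes on each mRNA, so a gene's footprint level reflects how much of its message there is and how heavily that message is loaded. Hsp90 is an abundant chaperone that helps kinases, receptors and other client proteins reach their active shape, and radicicol blocks it by sitting in its ATP-binding pocket. In yeast the loss of Hsp90 activity is known to release the heat shock transcription factor Hsf1, which raises chaperone genes. Yeast grown to high density on glucose passes through the diauxic shift, when glucose runs out, genes for using ethanol and fat are switched on and growth slows towards stationary phase. The labels describe no spike-in. A change given here is therefore a shift in a gene's share of the library, and fewer cells or less RNA per cell cannot be told apart.

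The smallest footprint library had 1140019 counts and the largest 1618914. Levels are given as CPM, which is counts scaled to a common library total with TMM factors, and a floor of 3 counts corresponded to 1.85 to 2.63 CPM, a limit that covers counting error only. Log-scale profiles correlated at 0.984 to 0.987 among the pre-treated libraries, at 0.980 to 0.982 among the untreated ones and at 0.965 to 0.970 between the groups. The first principal component, with 49.9% of the variance, parted the groups, and the next, with 15.6%, set untreated replicate 1 apart from the other untreated libraries. Genes that mark mating type a, such as the pheromone receptor gene STE2, carried footprints in every library, while the alpha-specific genes MF(ALPHA)2 and SAG1 had between 0 and 2 counts. The alpha pheromone gene MF(ALPHA)1 was not silent, at 105, 119 and 105 CPM in the pre-treated libraries, against 43.8, 64.8 and 53.0 CPM in the untreated ones. STE3, also alpha-specific, had enough counts to be tested and was not called (log2 -0.46).

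Of the 5083 genes, 674 (13.3%) were called with edgeR's quasi-likelihood test at an adjusted p under 0.05 (Benjamini-Hochberg over all genes tested), 432 higher (8.5%) and 242 lower (4.76%) after radicicol. Of the higher genes 94 (1.85% of all tested) differed by more than 2-fold and 18 by more than 4-fold, and of the lower genes 22 (0.433%) and 1. The median log2 change was -0.01 over all genes, 0.62 over the called higher genes and -0.51 over the called lower ones. Scaling by upper-quartile factors instead gave 353 higher and 331 lower genes, with 51.6% of the calls higher in place of 64.1%, and moved the median to -0.06. Without pre-treated replicate 2 the calls numbered 428. Precision grew with the footprint number: among 4 equal-sized bins of genes, 29% were called in the bin with the most footprints and 4.25% in that with the fewest, where the median standard errors (SE) of a log2 change were 0.10 and 0.27. In 1509 genes (29.7%) the 3 pre-treated values lay wholly above or wholly below the 3 untreated ones. Calls in the gene lists below can be set against 13.3% of all genes (8.5% higher, 4.76% lower), a share not matched for footprint level.

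**Figure D1:**
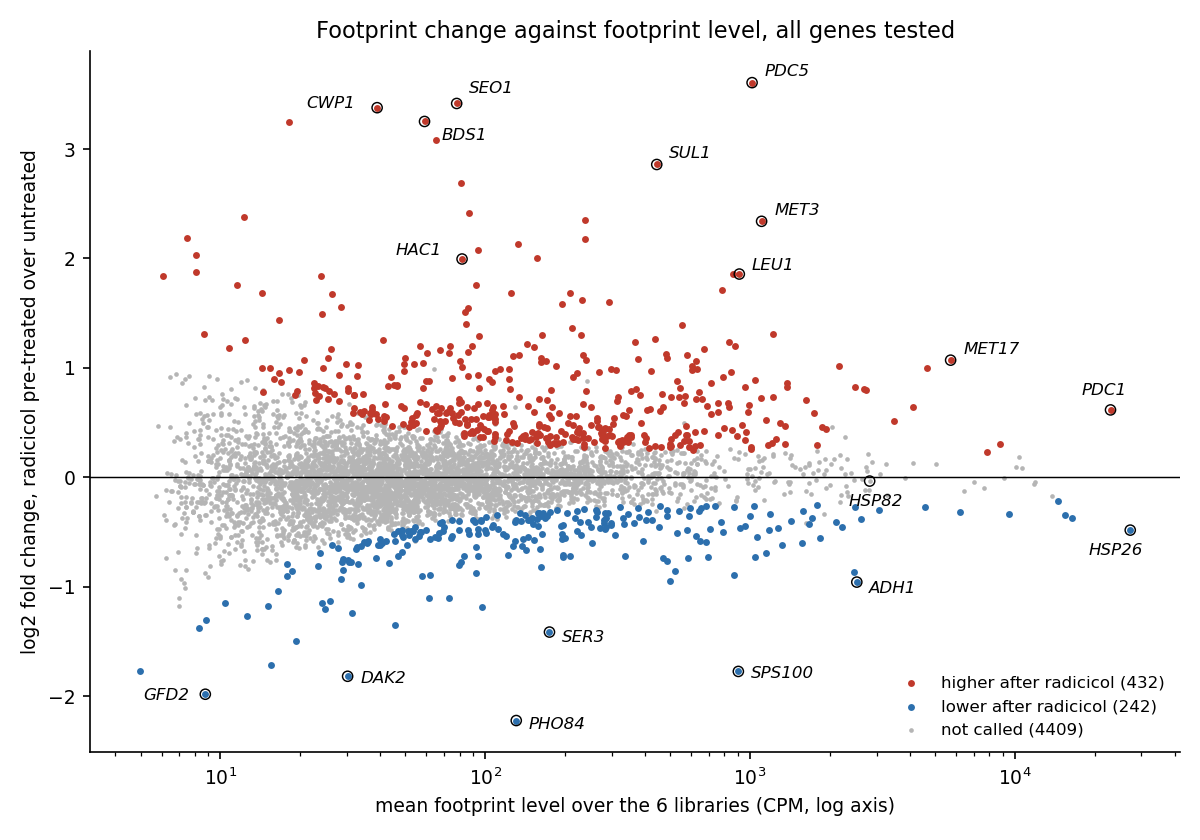
Log2 fold change in footprints (radicicol pre-treated over untreated) of the 5083 genes tested, against the mean footprint level of the 6 libraries in CPM on a log axis. The 432 genes called higher are red, the 242 called lower are blue and the 4409 not called are grey; PDC5 stands highest at 3.61 and PHO84 lowest at -2.22, while HSP82, the inducible Hsp90 gene, lies at -0.03.

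Chaperone genes are the textbook response to an Hsp90 inhibitor, and a day after the drug few of them were higher. Of 14 genes of Hsp90 and its co-chaperones, 0 were called in either direction by edgeR's quasi-likelihood test or by DESeq2, 1 had an unadjusted p under 0.05, and the median log2 change was -0.02. The inducible gene HSP82 (YPL240C, chromosome XVI, 96496 to 98625, R64-1-1) had 2448, 2971 and 2958 CPM in the pre-treated libraries, against 3148, 2796 and 2635 CPM in the untreated ones, and the groups overlapped (log2 -0.03, SE 0.09, adjusted p = 0.863). The constitutive gene HSC82 (YMR186W, chromosome XIII, 632355 to 634472) had 2204, 2437 and 2393 CPM in the pre-treated libraries, against 2126, 2002 and 1967 CPM in the untreated ones. Each pre-treated value was above each untreated one, yet the difference did not pass (log2 0.21, SE 0.08, adjusted p = 0.0774), although leaving out untreated replicate 1 gave an adjusted p of 0.0483. HSP82 and HSC82 are close copies, so the division of counts between them is uncertain. Summed over the list and without TMM scaling, as for the sums of later lists, the 14 genes took 8483, 9585 and 9427 CPM in the pre-treated libraries, against 9845, 9055 and 8885 CPM in the untreated ones. Hsf1 itself gave 85.0, 85.5 and 85.6 CPM pre-treated, against 91.6, 84.8 and 95.8 CPM untreated (log2 -0.08, adjusted p = 0.74).

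The Hsp70 system, its partners and small heat shock proteins split, with 3 of 19 called higher and 6 lower. The median log2 change was 0.07, with 10 positive and 9 negative values and the largest rise in SSZ1 (log2 0.38). Those that fell include genes known to be induced by stress. SSA3 (YBL075C, chromosome II, 84499 to 86448), a cytosolic Hsp70 made in stress and late growth, had 619, 585 and 625 CPM in the pre-treated libraries, against 1168, 1141 and 1082 CPM in the untreated ones. This is a fall of 0.89 on the log2 scale (SE 0.08, adjusted p = 4.32e-09), with the 3 values of each group close to each other. SSA4, the heat-induced Hsp70, had 1019, 1033 and 1064 CPM pre-treated, against 1680.1, 1601 and 1514 CPM untreated (log2 -0.62, SE 0.08, adjusted p = 1.17e-06). HSP26 (YBR072W, chromosome II, 382030 to 382674), a small heat shock protein that holds unfolding proteins in large assemblies, had 24345, 22371 and 21395 CPM in the pre-treated libraries, against 32626, 32696 and 29836 CPM in the untreated ones. No gene had more footprints in untreated cells (by number, not per length), and its level fell in pre-treated ones (log2 -0.48, SE 0.07, adjusted p = 1.13e-05). The disaggregase gene HSP104 also fell (log2 -0.33, SE 0.07), as did SSA1 (log2 -0.32, SE 0.07), whose counts are uncertain because SSA2 is a close copy, and the Hsp110 gene SSE2 (log2 -0.46, SE 0.08). SSA2 (log2 0.07, adjusted p = 0.615), the small heat shock protein gene HSP42 (log2 0.07, adjusted p = 0.714) and the Hsp40 gene SIS1 (log2 -0.05, adjusted p = 0.767) were not called. The Hsp40 gene YDJ1, with 715, 698 and 732 CPM pre-treated, against 586, 595 and 569 CPM untreated, rose slightly (log2 0.29, SE 0.08, adjusted p = 0.0135), a call lost on leaving out the third library of either group (adjusted p = 0.0597 and 0.0622, pre-treated and untreated). The list took 48209, 47293 and 47974 CPM in the pre-treated libraries, against 65306, 63773 and 60391 CPM in the untreated ones, and the groups did not overlap. HSP26 held a large part of that sum in every library. Without pre-treated replicate 3 the number of higher genes in this list was 1.

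Many genes for folding in the endoplasmic reticulum (ER) were higher. This compartment folds secreted and membrane proteins, and when it is overloaded the sensor Ire1 splices the HAC1 message so that the transcription factor Hac1 is made. Of 21 ER folding genes, 10 rose and 0 fell (median log2 0.43), and 6 rose without pre-treated replicate 2 or without untreated replicate 2. HAC1 (YFL031W, chromosome VI, 75179 to 76147) had 123, 148 and 121 CPM in the pre-treated libraries, against 34.1, 31.7 and 32.5 CPM in the untreated ones. Pre-treated libraries thus held 3.99 times the untreated level (log2 1.99, SE 0.14, adjusted p = 6.05e-11), although the count is uncertain because YFL032W overlaps HAC1 on the same strand. ERO1, the oxidase that supplies disulfide bonds, had 208, 248 and 233 CPM in the pre-treated libraries, against 120.0, 98.5 and 111 CPM in the untreated ones. The values did not overlap (log2 1.07, SE 0.11, adjusted p = 3.8e-08). KAR2, the ER Hsp70, had 1104, 1271 and 1163 CPM pre-treated, against 808, 784 and 752 CPM untreated (log2 0.59, SE 0.08, adjusted p = 5.11e-06), and its nucleotide exchange factor SIL1 had 39.0, 48.6 and 41.2 CPM pre-treated, against 30.0, 18.6 and 19.7 CPM untreated (log2 0.92, SE 0.20, adjusted p = 0.00164). SEC61, the channel through which new proteins enter the ER, had 126, 122 and 132 CPM pre-treated, against 101, 80.6 and 88.1 CPM untreated (log2 0.50, SE 0.12, adjusted p = 0.00336) and was the member called among 23 genes of nascent chain complexes, signal recognition particle and translocon, where 2 were called without untreated replicate 2. Calls made up 4.35% of that list, against 13.3% of all genes tested. Of 35 proteasome genes 4 were called higher (11.4% called), led by the lid subunit gene RPN5 (log2 0.45, SE 0.09). The number of higher proteasome genes was 1 with upper-quartile factors or without pre-treated replicate 1, pre-treated replicate 2 or untreated replicate 3. Without untreated replicate 2 it was 2, and 1 gene was then lower.

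Many genes of sulfur metabolism rose. Yeast takes sulfate up through Sul1 and Sul2, activates it with ATP, reduces it to sulfide and joins the sulfide to a carbon skeleton to make homocysteine, the parent of methionine, cysteine and S-adenosylmethionine. Met4 and its DNA-binding partners switch these genes on when sulfur amino acids run low. All 11 genes of sulfate assimilation rose, against 8.5% of all genes tested, with a median log2 change of 1.71 and a range of 0.75 (MET22) to 2.86 (SUL1). The list took 14734, 16049 and 14403 CPM in the pre-treated libraries, against 5892, 5765 and 6362 CPM in the untreated ones.

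For uptake, SUL1 (YBR294W, chromosome II, 789235 to 791814), a sulfate permease gene, had 561, 866 and 914 CPM in the pre-treated libraries, against 94.1, 105 and 124 CPM in the untreated ones. Pre-treated replicate 1 was the lowest of its group and still far above each untreated value (7.25-fold, log2 2.86, SE 0.22, adjusted p = 7.87e-05). For activation, MET3 (YJR010W, chromosome X, 456239 to 457774), the ATP sulfurylase gene, had 1769.9, 2059.7 and 1705 CPM in the pre-treated libraries, against 364, 362 and 367 CPM in the untreated ones. The untreated values differed by only a few CPM, and the rise was 5.06-fold (log2 2.34, SE 0.09, adjusted p = 1.65e-16). For reduction, MET5, a subunit of sulfite reductase, had 1256, 1459 and 1356 CPM pre-treated, against 363, 347 and 411 CPM untreated (log2 1.86, SE 0.09, adjusted p = 2.6e-14). MET1, which makes the siroheme that this enzyme carries, had 431, 456 and 283 CPM pre-treated, against 76.2, 77.9 and 105 CPM untreated (log2 2.18, SE 0.22, adjusted p = 0.00034). Pre-treated replicate 3 was its lowest treated value, and the groups remained apart. MET17 (YLR303W, chromosome XII, 732542 to 733876), which joins sulfide to O-acetylhomoserine, had 7914, 8179 and 7121 CPM in the pre-treated libraries, against 3593, 3627 and 3834 CPM in the untreated ones. It was already high in untreated cells and rose 2.10-fold (log2 1.07, SE 0.07, adjusted p = 3.78e-11).

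Downstream of sulfide, 15 of 25 genes of the methionine, cysteine and S-adenosylmethionine list rose and 0 fell (median 0.71). MET6, methionine synthase, had 6421, 6661 and 5532 CPM pre-treated, against 3061, 3051 and 3183 CPM untreated (log2 1.00, SE 0.08, adjusted p = 2.73e-10). CYS3, which makes cysteine from cystathionine, had 1659, 1827 and 1748 CPM pre-treated, against 655, 708 and 743 CPM untreated (log2 1.31, SE 0.08, adjusted p = 4.61e-12). SAM2, an S-adenosylmethionine synthetase with a close copy in SAM1, had 3182, 3442 and 2948 CPM pre-treated, against 1801, 1904 and 1706 CPM untreated (log2 0.82, SE 0.08, adjusted p = 1.52e-08). In each of these 3 genes the groups did not overlap. With fewer footprints, MHT1, which makes methionine from S-methylmethionine, had 151, 166 and 103 CPM pre-treated, against 27.6, 16.5 and 21.4 CPM untreated (log2 2.69, SE 0.21, adjusted p = 2.34e-08), and its neighbour MMP1, the S-methylmethionine permease, had 168, 248 and 236 CPM pre-treated, against 43.0, 51.7 and 53.9 CPM untreated (log2 2.13, SE 0.15, adjusted p = 5.48e-10). The cysteine transporter gene YCT1 had 340.0, 436 and 274 CPM pre-treated, against 126, 99.9 and 115 CPM untreated (log2 1.62, SE 0.16, adjusted p = 8.58e-06).

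Genes for scavenging organic sulfur were among the largest rises of all, with 8 of 11 tested higher. SEO1 (YAL067C, chromosome I, 7235 to 9016), a permease gene linked to sulfur compounds, had 121, 194 and 113 CPM in the pre-treated libraries, against 15.4, 11.03 and 13.7 CPM in the untreated ones. It was next to PDC5 in size (10.7-fold, log2 3.42, SE 0.27, adjusted p = 8.93e-07), with pre-treated replicate 2 above the other pre-treated values. BDS1 (YOL164W, chromosome XV, 6175 to 8115), a bacterial-type sulfatase gene, had 79.4, 127 and 114 CPM in the pre-treated libraries, against 11.4, 11.03 and 11.1 CPM in the untreated ones. The untreated values were nearly equal (9.53-fold, log2 3.25, SE 0.21, adjusted p = 3.28e-11). The sulfonate dioxygenase gene JLP1 had 388, 475 and 456 CPM pre-treated, against 138, 152 and 145 CPM untreated (log2 1.602, SE 0.10, adjusted p = 4.89e-12), and the glutathione transporter gene OPT1 had 247, 410.3 and 299.8 CPM pre-treated, against 101, 90.3 and 106 CPM untreated (log2 1.69, SE 0.18, adjusted p = 5.17e-05). Among the Met4 regulators 4 of 5 tested rose. MET32, a DNA-binding partner of Met4, had 45.3, 43.1 and 24.6 CPM pre-treated, against 8.11, 11.03 and 11.97 CPM untreated (log2 1.84, SE 0.27, adjusted p = 1.62e-05), and MET30, the F-box protein that restrains Met4, had 395, 462 and 331 CPM pre-treated, against 234, 193 and 172 CPM untreated (log2 0.99, SE 0.12, adjusted p = 6.31e-06). Both sides of this control circuit therefore had more footprints after radicicol, while MET31 had between 2 and 5 counts in each library and was not tested.

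**Figure D2:**
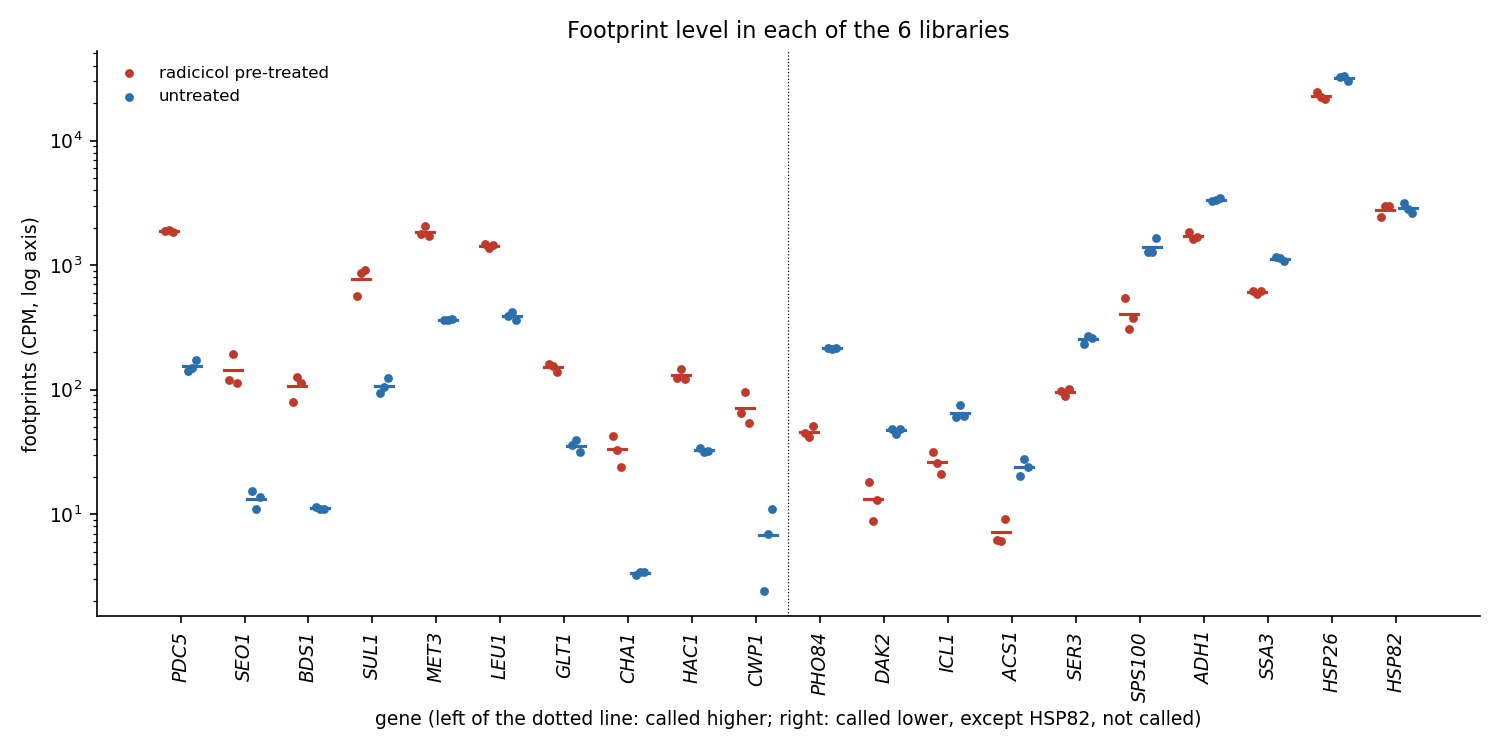
Footprints in CPM on a log axis for 20 genes, with each of the 3 radicicol pre-treated libraries (red) left of the 3 untreated ones (blue) and a bar at the group mean. For the 10 genes left of the dotted line, among them PDC5, SUL1 and HAC1, the pre-treated values all lie above the untreated ones; right of it they lie below, except for HSP82, where the groups overlap.

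Other amino acid pathways moved less evenly. Outside sulfur, 25 of 65 amino acid biosynthesis genes were called higher and 2 lower, and the median was 0.21. LEU1 (YGL009C, chromosome VII, 476313 to 478652), the isopropylmalate isomerase of leucine synthesis, had 1465, 1370.4 and 1446 CPM in the pre-treated libraries, against 392.5, 424 and 363 CPM in the untreated ones. The rise was 3.62-fold (log2 1.86, SE 0.09, adjusted p = 1.04e-14). GLT1 (YDL171C, chromosome IV, 149203 to 155640), glutamate synthase, had 160.3, 155 and 139 CPM in the pre-treated libraries, against 35.7, 39.3 and 31.6 CPM in the untreated ones. It was also clear of its untreated values (4.23-fold, log2 2.08, SE 0.13, adjusted p = 8.89e-12). The 2 isoenzymes for the first step of serine synthesis went opposite ways. SER33 had 1197, 1290.4 and 1006 CPM pre-treated, against 486, 498 and 502 CPM untreated (log2 1.23, SE 0.09, adjusted p = 1.09e-10), and SER3 had 96.9, 88.2 and 101 CPM pre-treated, against 232, 271 and 260.0 CPM untreated (log2 -1.41, SE 0.11, adjusted p = 1.23e-10). The count of SER3 is uncertain because the noncoding gene SRG1 overlaps it on the same strand. GCN4, the activator of amino acid synthesis genes whose own translation rises in starvation, had 384, 309 and 365 CPM in the pre-treated libraries, against 477, 624 and 666 CPM in the untreated ones. It was lower in each pre-treated library (log2 -0.74, SE 0.11, adjusted p = 7.42e-05).

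Genes that take up or break down amino acids went both ways. AGP3, a broad amino acid permease, had 105, 168 and 165 CPM pre-treated, against 29.2, 24.1 and 29.1 CPM untreated (log2 2.42, SE 0.19, adjusted p = 6.79e-09), and DIP5, a permease for acidic amino acids, had 55.0, 30.8 and 35.1 CPM pre-treated, against 12.2, 10.3 and 15.4 CPM untreated (log2 1.68, SE 0.26, adjusted p = 2.67e-05). The general permease gene GAP1 rose as well (log2 0.68, SE 0.08), and altogether 4 of 16 permease genes rose and 2 fell, or 1 fell without pre-treated replicate 3 or untreated replicate 3. CHA1 (YCL064C, chromosome III, 15798 to 16880), which breaks down serine and threonine and is induced by them, had 42.5, 32.8 and 24.0 CPM in the pre-treated libraries, against 3.24, 3.45 and 3.42 CPM in the untreated ones. Its untreated values lay close to the level of 3 counts, so the size of the rise is uncertain (9.51-fold, log2 3.25, SE 0.34, adjusted p = 5.01e-08). The glycine cleavage genes GCV1 (log2 0.86, SE 0.09) and GCV2 (log2 1.08, SE 0.12) and the aromatic aminotransferase gene ARO9 (log2 0.82, SE 0.12) rose too, and in the breakdown list 7 of 17 were higher and 3 lower.

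Purine synthesis, which draws on glycine and one-carbon units, was higher at most steps, with 15 of 20 genes up, 0 down and a median of 0.72. SHM2, which passes a carbon from serine to folate, had 3187, 2772 and 2718 CPM in the pre-treated libraries, against 1350.1, 1424 and 1519 CPM in the untreated ones. The 3 pre-treated values were each well above the untreated ones (log2 1.02, SE 0.08, adjusted p = 4.89e-10). ADE1, a middle step of the pathway, had 523, 539 and 493 CPM pre-treated, against 244, 186 and 230.1 CPM untreated (log2 1.24, SE 0.10, adjusted p = 4.54e-10), and ADE5,7, which carries 2 activities of the pathway, had 919, 842 and 765 CPM pre-treated, against 398, 422 and 391.7 CPM untreated (log2 1.06, SE 0.09, adjusted p = 9.78e-10). ADE12, the first step towards AMP, had 629, 621 and 605 CPM pre-treated, against 249.7, 249 and 276 CPM untreated (log2 1.26, SE 0.09, adjusted p = 3.53e-11). IMD2, the first step towards GMP, had 23.0, 19.8 and 30.8 CPM pre-treated, against 7.30, 12.4 and 6.84 CPM untreated (log2 1.44, SE 0.29, adjusted p = 0.000687); it belongs to a family of close copies, so its count is uncertain. The pathway's activators did not follow, with log2 changes of -0.20 for BAS1 and 0.08 for PHO2, neither called. The list took 11278, 10622 and 10437 CPM in the pre-treated libraries, against 6219, 6427 and 6603 CPM in the untreated ones. Pyrimidine synthesis had 3 of 14 genes higher and 1 lower, so that 28.6% were called, against 13.3% of all genes. Without pre-treated replicate 2 just 1 was higher, and without pre-treated replicate 1, pre-treated replicate 3 or untreated replicate 1 the lower genes numbered 2. There URA4, dihydroorotase, rose (log2 0.55, SE 0.12) and URA1, dihydroorotate dehydrogenase, fell (log2 -0.56, SE 0.10).

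Central carbon metabolism held the single largest rise. Pyruvate decarboxylase, which sends pyruvate to ethanol, is encoded by PDC1, the main isoform, and by PDC5 and PDC6, which are usually minor. PDC5 (YLR134W, chromosome XII, 410723 to 412414) had 1878, 1923 and 1838 CPM in the pre-treated libraries, against 142, 149 and 173 CPM in the untreated ones. The groups were far apart, with a 12.2-fold difference (log2 3.61, SE 0.10, adjusted p = 3.08e-20). PDC1 (YLR044C, chromosome XII, 232390 to 234081) had 28123, 27542 and 27567 CPM in the pre-treated libraries, against 18102, 18334 and 17874 CPM in the untreated ones, the largest number of footprints on any gene after radicicol, not corrected for length (log2 0.62, SE 0.07, adjusted p = 7.28e-08). PDC6 had 3926, 4180.3 and 4251 CPM pre-treated, against 2904, 2896 and 2859 CPM untreated (log2 0.51, SE 0.07, adjusted p = 7.04e-06). All 3 isoforms rose, and together they took 32756, 32812 and 33770.2 CPM in the pre-treated libraries, against 21656, 21363 and 21443 CPM in the untreated ones. The 3 proteins are close in sequence and reads that map to several places were left out in the per-library files, so the division of counts among them is uncertain.

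Glycolysis genes went both ways, with 4 of 21 higher, 3 lower and a median of 0.08. Of that list 33.3% was called, against 13.3% of all genes and 29% of the bin of genes with the most footprints. With upper-quartile factors, or without pre-treated replicate 2 or untreated replicate 3, the higher genes numbered 1. ENO2, the enolase of glucose growth, had 3550.2, 3499.9 and 3390.1 CPM pre-treated, against 2029.6, 2060.3 and 1909 CPM untreated (log2 0.80, SE 0.07, adjusted p = 6.77e-09). TDH1, a glyceraldehyde phosphate dehydrogenase used in slow growth, had 14093, 13243 and 13503 CPM pre-treated, against 17155, 18653 and 16110.3 CPM untreated (log2 -0.35, SE 0.07, adjusted p = 0.000982). These 2 genes have close copies, so their counts are uncertain. PFK26, which makes the activator of phosphofructokinase, fell (log2 -0.45, SE 0.09). ADH1, the alcohol dehydrogenase that makes ethanol, had 1842, 1616 and 1696 CPM in the pre-treated libraries, against 3243, 3334 and 3431 CPM in the untreated ones. It fell in all 3 pre-treated libraries (log2 -0.96, SE 0.08, adjusted p = 4.56e-10), opposite to the decarboxylases that feed it. ADH1 has a close copy in ADH2, which had between 1 and 11 counts and was not tested, so the count of ADH1 is uncertain too. Among glucose transporters and their regulators 3 of 14 rose and 3 fell. HXT1, the low-affinity transporter induced by high glucose, had 199, 211 and 161 CPM pre-treated, against 45.4, 49.6 and 83.8 CPM untreated (log2 1.69, SE 0.19, adjusted p = 2.24e-05). HXT2, used at moderate glucose, had 27.2, 59.5 and 41.9 CPM pre-treated, against 13.8, 17.9 and 11.1 CPM untreated (log2 1.56, SE 0.28, adjusted p = 0.000438), and HXT4 had 425, 613 and 509.7 CPM pre-treated, against 808, 814 and 694 CPM untreated (log2 -0.58, SE 0.11, adjusted p = 0.000727). MIG3, a repressor gene, rose from few counts (11.8, 16.4 and 8.62 CPM pre-treated, against 3.24, 0.689 and 4.28 CPM untreated; log2 2.19, SE 0.46, adjusted p = 0.00118).

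Many genes for growth on carbon sources other than glucose fell. Of 14 genes of gluconeogenesis and the glyoxylate cycle, 8 fell, against 4.76% of all genes tested, with a median of -0.51. ICL1 (YER065C, chromosome V, 285241 to 286914), isocitrate lyase, had 31.4, 25.99 and 20.9 CPM in the pre-treated libraries, against 60.0, 75.1 and 61.6 CPM in the untreated ones. No value was shared between the groups (log2 -1.34, SE 0.17, adjusted p = 1.83e-06). JEN1, the lactate transporter, had 4.18, 11.6 and 14.2 CPM pre-treated, against 29.2, 32.4 and 23.9 CPM untreated (log2 -1.49, SE 0.29, adjusted p = 0.000533), and IDP2, a cytosolic isocitrate dehydrogenase, had 15.3, 14.4 and 15.4 CPM pre-treated, against 30.0, 34.5 and 35.9 CPM untreated (log2 -1.15, SE 0.21, adjusted p = 0.000272). PCK1, the key enzyme of gluconeogenesis, was close to the 3-count level at 2.79, 1.37 and 2.46 CPM pre-treated, against 8.11, 8.27 and 6.84 CPM untreated (log2 -1.77, SE 0.45, adjusted p = 0.00753), and its call ended without pre-treated replicate 2 (adjusted p = 0.0711). ACS1, the acetyl-CoA synthetase of non-glucose growth, had 6.27, 6.15 and 9.23 CPM in the pre-treated libraries, against 20.3, 27.6 and 23.9 CPM in the untreated ones. It fell in every pre-treated library (log2 -1.71, SE 0.28, adjusted p = 5.96e-05).

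Peroxisomes burn fatty acids, and 6 of 26 genes of that list fell while 0 rose (median -0.33), or 10 fell with upper-quartile factors. The 6 were 23.1% of the list, against 4.76% of all genes called lower. PEX18, which brings proteins into peroxisomes, had 14.6, 16.4 and 14.2 CPM pre-treated, against 31.6, 38.6 and 33.4 CPM untreated (log2 -1.201, SE 0.21, adjusted p = 0.000159), and POX1, the oxidase of the first step, had 17.4, 16.4 and 24.6 CPM pre-treated, against 38.9, 31.0 and 43.6 CPM untreated (log2 -0.93, SE 0.21, adjusted p = 0.00283). In glycerol metabolism, DAK2 (YFL053W, chromosome VI, 23423 to 25198), a dihydroxyacetone kinase, had 18.1, 8.89 and 12.9 CPM in the pre-treated libraries, against 48.7, 44.1 and 48.7 CPM in the untreated ones. It was the largest fall after PHO84 and GFD2 (log2 -1.82, SE 0.22, adjusted p = 5.64e-07). GUT2, the glycerol phosphate dehydrogenase of mitochondria, had 426, 416 and 468 CPM pre-treated, against 755, 710.4 and 718 CPM untreated (log2 -0.74, SE 0.08, adjusted p = 2.76e-07), while GPP1, which makes glycerol, had 439, 419 and 333 CPM pre-treated, against 206, 231 and 279.7 CPM untreated (log2 0.73, SE 0.12, adjusted p = 8.87e-05).

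Mitochondrial energy genes did not move as 1 group. In the tricarboxylic acid cycle 3 of 16 genes rose and 3 fell, or 1 fell without pre-treated replicate 2. The aconitase gene ACO1 had 764, 677 and 581 CPM pre-treated, against 408, 408 and 400.2 CPM untreated (log2 0.73, SE 0.09, adjusted p = 1.78e-06), while CIT3, a minor citrate synthase, had 6.97, 9.57 and 11.1 CPM pre-treated, against 21.1, 19.3 and 23.1 CPM untreated (log2 -1.17, SE 0.27, adjusted p = 0.00301). In the respiratory chain 5 of 37 rose and 4 fell, so that 24.3% were called, against 13.3% of all genes tested. The number that fell was 1 without pre-treated replicate 2 or untreated replicate 2, 7 without untreated replicate 1 and 9 with upper-quartile factors. The cytochrome c gene CYC1 rose (84.3, 77.3 and 74.5 CPM pre-treated, against 36.5, 41.3 and 35.9 CPM untreated; log2 1.04, SE 0.15, adjusted p = 6.39e-06) and the external NADH dehydrogenase gene NDE2 fell (109, 124 and 140.4 CPM pre-treated, against 192, 205 and 194 CPM untreated; log2 -0.66, SE 0.11, adjusted p = 5.37e-05). Of 70 mitochondrial ribosomal protein genes, 60 had a negative log2 change (median -0.19), against 2602 of all 5083 genes. Just 1 of the 70, MRPL15, was called by edgeR's quasi-likelihood test (log2 -0.60, SE 0.18, adjusted p = 0.0282). This was 1.43% of the list, against 13.3% of all genes. MRPL15 was not called with DESeq2 (adjusted p = 0.131). With edgeR the call was lost without pre-treated replicate 1 or 2 or untreated replicate 2 or 3 (adjusted p = 0.0616, 0.170, 0.0540 and 0.112). The summed level of the 70 genes was 2210.0, 2283 and 2368 CPM in the pre-treated libraries, against 2623, 2738 and 2655 CPM in the untreated ones.

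**Figure D3:**
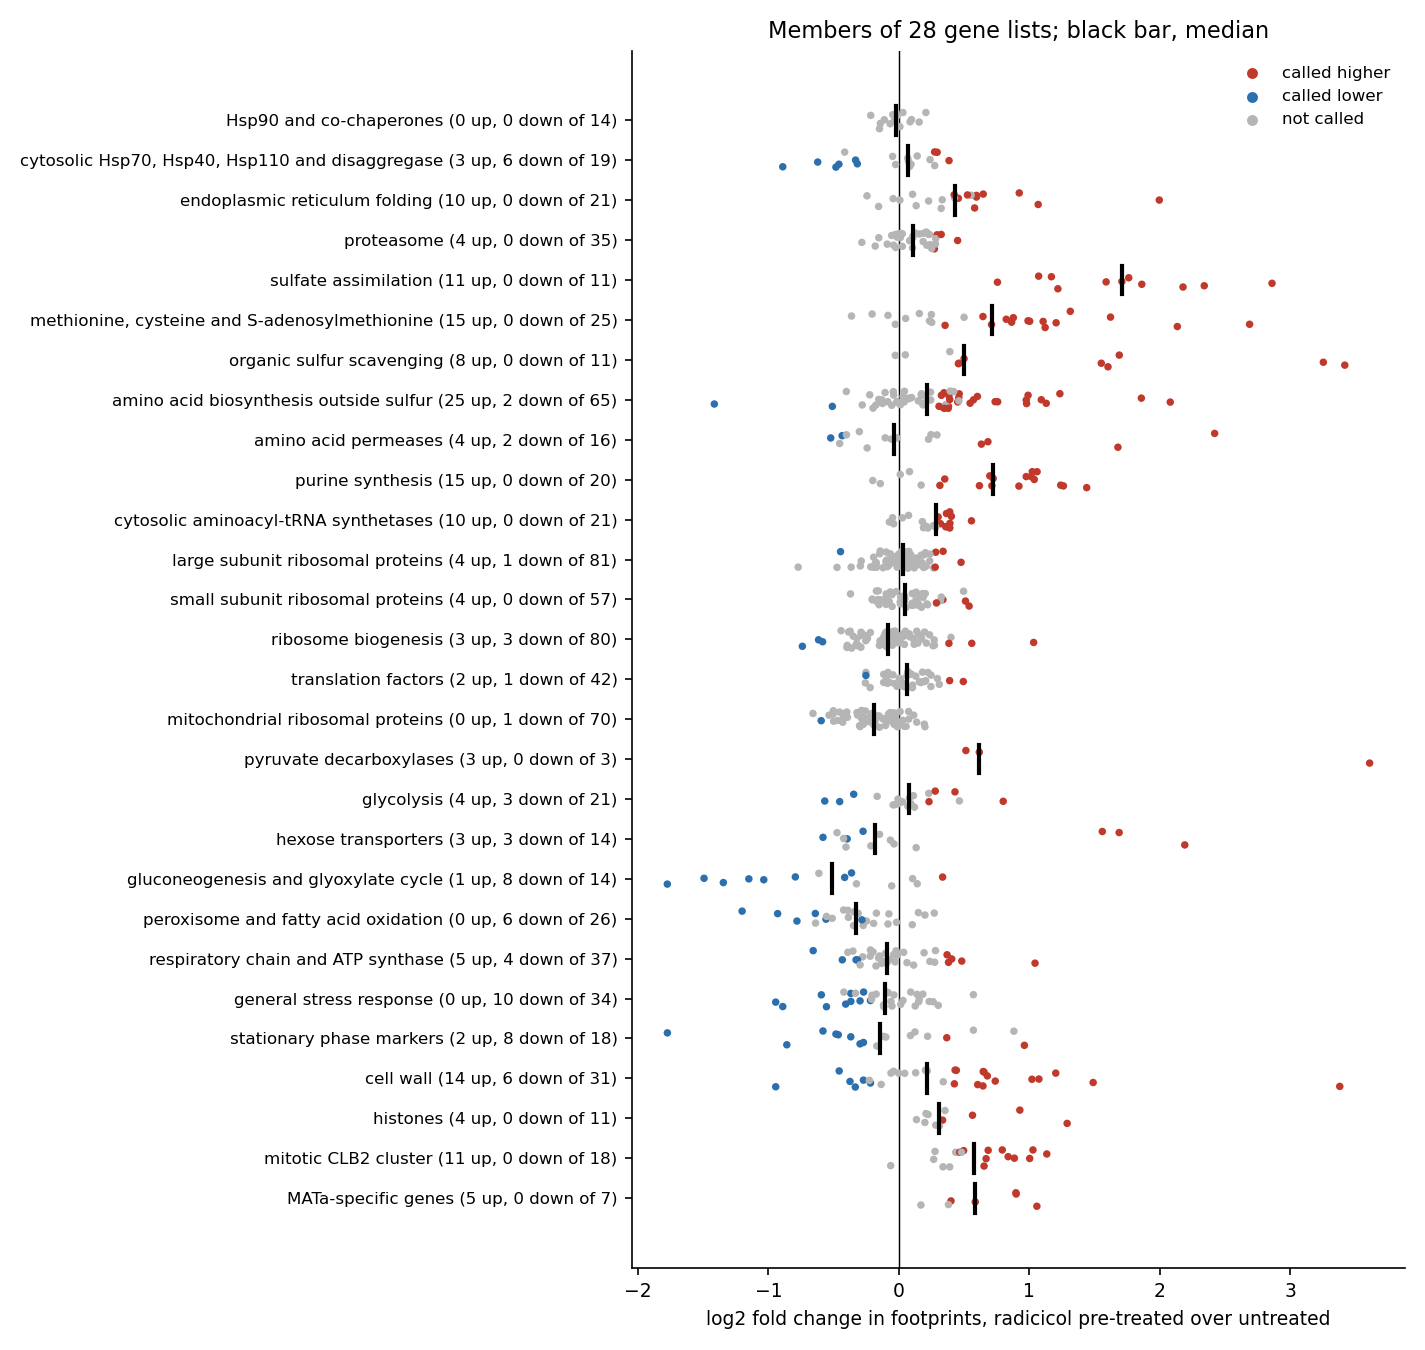
Log2 fold change in footprints (radicicol pre-treated over untreated) of each tested member of 28 gene lists, 1 row per list, with members called higher in red, called lower in blue and not called in grey, and a black bar at the median. Sulfate assimilation lies wholly to the right of 0 (median 1.71), gluconeogenesis lies mostly to the left (median -0.51), and the Hsp90 and ribosomal protein lists sit around 0.

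Vitamins and nutrients other than sulfur gave a few large single changes. PHO84 (YML123C, chromosome XIII, 24037 to 25800) takes up phosphate with high affinity and had 45.3, 41.7 and 51.1 CPM in the pre-treated libraries, against 217, 212 and 218 CPM in the untreated ones. It was the largest fall of all genes and the 1 beyond 4-fold (log2 -2.22, SE 0.12, adjusted p = 1.15e-13). Of 17 phosphate genes 2 fell and 0 rose, the other being the regulator PHO81 (log2 -0.52, SE 0.12), and 1 rose without pre-treated replicate 1. PHO3, an acid phosphatase that serves thiamine uptake, had 264, 267 and 223 CPM in the pre-treated libraries, against 54.3, 59.9 and 74.4 CPM in the untreated ones. The groups were well apart (log2 2.00, SE 0.12, adjusted p = 3.4e-12). PHO3 was among 6 of 14 tested genes of the thiamine list that rose (list median 0.08), a number that was 3 with DESeq2 or without pre-treated replicate 1. Also higher in it were THI21 (log2 1.75, SE 0.34) and SNZ1 (log2 0.96, SE 0.10), which is listed with the stationary phase markers too. The list held 24 genes, and those left out for low counts included THI5, THI11, THI12, THI13, SNZ2 and SNZ3. ZPS1, a zinc-regulated cell surface protein, had 429.9, 439 and 326 CPM in the pre-treated libraries, against 73.8, 86.1 and 72.7 CPM in the untreated ones. It stood out among 16 zinc genes, of which 2 rose (log2 2.35, SE 0.12, adjusted p = 6.62e-13), the other being the zinc transporter ZRT1 (log2 0.46, SE 0.08). Without pre-treated replicate 3 or untreated replicate 3, 1 zinc gene fell. Calls made up 12.5% of the zinc list and 11.8% of the phosphate list, against 13.3% of all genes. In biotin metabolism 1 of 8 genes rose, the biotin synthase gene BIO2 (log2 0.34, SE 0.11, adjusted p = 0.041), a call that held on leaving out pre-treated replicate 1 but not on leaving out any other library, and 4 fell, among them the regulator VHR2 (54.4, 41.0 and 43.7 CPM pre-treated, against 70.5, 109 and 119 CPM untreated; log2 -1.10, SE 0.17, adjusted p = 8.26e-05), and 2 fell without any 1 pre-treated replicate or without untreated replicate 3. In the iron list 3 of 22 rose, such as the siderophore transporter ENB1 (log2 0.64, SE 0.14), and 4 fell, such as the heme oxygenase HMX1 (log2 -0.48, SE 0.08), or 2 without pre-treated replicate 2. Of the iron list 31.8% was called, against 13.3% of all genes.

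Most calls among genes that mark stress and entry into stationary phase were lower. In the general stress list 10 of 34 fell and 0 rose (median -0.10), although 4 rose without untreated replicate 1 and 2 without pre-treated replicate 1. The list took 54154, 53918 and 53125 CPM in the pre-treated libraries, against 65848, 67496 and 65344 CPM in the untreated ones. SPI1, a wall protein of late growth, had 365, 324 and 332 CPM pre-treated, against 581, 750.4 and 630.3 CPM untreated (log2 -0.94, SE 0.10, adjusted p = 3.81e-08), and DDR2, a stress gene of unknown role, had 1758, 1405 and 1312 CPM pre-treated, against 1882, 2498 and 2191 CPM untreated (log2 -0.56, SE 0.12, adjusted p = 0.00379). SPS100 (YHR139C, chromosome VIII, 378219 to 379199), a spore wall gene, had 545, 306 and 374 CPM in the pre-treated libraries, against 1272, 1265 and 1652 CPM in the untreated ones. It fell by 1.77 on the log2 scale (SE 0.24, adjusted p = 0.00742), and did not pass without untreated replicate 1 (adjusted p = 0.0528). SIP18, a desiccation protein, had 439.7, 343 and 325 CPM pre-treated, against 652, 688 and 667 CPM untreated (log2 -0.86, SE 0.10, adjusted p = 3.79e-07). SPS100 and SIP18 were among 8 of 18 stationary phase markers that fell, while 2 rose, SNZ1 and its neighbour SNO1, or 1 without pre-treated replicate 1 or untreated replicate 2 or 3. The stress transcription factor genes MSN2 (log2 0.12, adjusted p = 0.648) and MSN4 (log2 -0.17, adjusted p = 0.21) were not called. Among oxidative stress genes 2 of 28 rose and 3 fell, with CCP1, the cytochrome c peroxidase, at 115, 119 and 121 CPM pre-treated, against 58.4, 46.9 and 56.4 CPM untreated (log2 1.14, SE 0.13, adjusted p = 2.18e-07) and the mitochondrial superoxide dismutase SOD2 lower (log2 -0.46, SE 0.08); without untreated replicate 1 those numbers were 4 and 5. Trehalose and glycogen genes, which serve carbohydrate stores, had 2 of 20 higher and 0 lower, or 6 higher without pre-treated replicate 1 or untreated replicate 1 and 1 lower without pre-treated replicate 3. Calls made up 17.9% of the oxidative stress list and 10% of the trehalose and glycogen list, against 13.3% of all genes. Whether the cultures differed in density or in remaining glucose at harvest was not tested, since the labels give neither.

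The cell wall list was among the most changed, with 14 of 31 genes higher and 6 lower. CWP1 (YKL096W, chromosome XI, 261132 to 261851), a mannoprotein of the wall, had 64.8, 95.1 and 54.2 CPM in the pre-treated libraries, against 2.43, 6.89 and 11.1 CPM in the untreated ones. Untreated values spread widely down to the 3-count level, so the 10.4-fold rise has an uncertain size (log2 3.38, SE 0.34, adjusted p = 9.94e-06). CCW12, an abundant mannoprotein, had 5268, 4978 and 4873 CPM pre-treated, against 2801, 3809.9 and 3047 CPM untreated (log2 0.65, SE 0.09, adjusted p = 1.67e-05), and UTR2, which links chitin to glucan, had 37.6, 34.2 and 35.7 CPM pre-treated, against 14.6, 12.4 and 11.1 CPM untreated (log2 1.49, SE 0.22, adjusted p = 1.27e-05). TIP1, another mannoprotein, had 146, 127 and 102 CPM pre-treated, against 60.8, 57.9 and 42.8 CPM untreated (log2 1.202, SE 0.15, adjusted p = 1.97e-06). Wall genes that fell were PST1 (log2 -0.46, SE 0.08), SPI1, as given above, SED1, PIR3, YPS1 and YPS3; without pre-treated replicate 2 or untreated replicate 2 just 3 fell. HPF1, a large wall protein outside that list, had 3608, 3574 and 3113 CPM pre-treated, against 1769, 2140.3 and 1982 CPM untreated (log2 0.80, SE 0.08, adjusted p = 4.97e-08). In the list of sterol synthesis and desaturation 6 of 28 genes fell and 3 rose; 0 rose with upper-quartile factors or without pre-treated replicate 2, pre-treated replicate 3 or untreated replicate 3, and 1 rose without untreated replicate 1 or 2. OLE1, the fatty acid desaturase, had 1985, 1727 and 1529 CPM in the pre-treated libraries, against 3062, 3081 and 3401 CPM in the untreated ones. It fell in each pre-treated library (log2 -0.86, SE 0.09, adjusted p = 4.51e-08), and so did ERG3, a sterol desaturase (519.8, 486 and 523 CPM pre-treated, against 786, 701 and 737 CPM untreated; log2 -0.54, SE 0.08, adjusted p = 2.72e-05). In drug resistance, the efflux pump PDR5 had 704, 704 and 673 CPM pre-treated, against 425, 413 and 462 CPM untreated (log2 0.68, SE 0.08, adjusted p = 9.22e-07), the weak acid pump PDR12 had 1549, 1302 and 1194 CPM pre-treated, against 724, 652 and 815 CPM untreated (log2 0.89, SE 0.10, adjusted p = 3.9e-07) and ATR1, another exporter, had 71.1, 52.0 and 49.9 CPM pre-treated, against 19.5, 19.3 and 34.2 CPM untreated (log2 1.26, SE 0.21, adjusted p = 9.74e-05). These 3 were the higher genes among 20 of that list, and 2 fell, or 0 without pre-treated replicate 1 or 2 or untreated replicate 2 or 3. Together the calls made up 25% of the list, against 13.3% of all genes.

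In a series whose title concerns translation, few ribosomal protein genes were called. Of 81 large subunit ribosomal protein genes 4 rose and 1 fell (median 0.03), and of 57 small subunit genes 4 rose and 0 fell (median 0.04). These shares of 6.17% and 7.02% called lie under the 13.3% of all genes, and many of these genes have close copies, so their counts are uncertain. Large subunit genes took 22361, 20988 and 21736 CPM in the pre-treated libraries, against 18467, 23235 and 22757 CPM in the untreated ones. Small subunit genes took 15669.5, 14887 and 15476 CPM in the pre-treated libraries, against 13094, 16096 and 16298 CPM in the untreated ones. Untreated replicate 1 was the lowest library in both, and without it 0 large subunit genes rose and 7 fell, and 2 small subunit genes rose and 3 fell. Large subunit genes called higher numbered 1 without pre-treated replicate 1 or untreated replicate 3 and 2 without pre-treated replicate 2 or 3, and those called lower 2 without pre-treated replicate 1 and 0 without untreated replicate 3. Small subunit genes called higher numbered 2 without pre-treated replicate 1 or 2, and 1 was called lower without pre-treated replicate 1. RPS31, which is made as a fusion to ubiquitin, had 298, 317 and 318 CPM pre-treated, against 185, 246 and 222 CPM untreated (log2 0.51, SE 0.10, adjusted p = 0.000637), and RPS22A had 319.8, 327 and 297 CPM pre-treated, against 174, 236 and 239 CPM untreated (log2 0.54, SE 0.11, adjusted p = 0.000665).

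Ribosome biogenesis genes had 3 of 80 higher and 3 lower (median -0.08), with DBP2, an RNA helicase, at 93.4, 60.9 and 62.2 CPM pre-treated, against 26.8, 33.8 and 45.3 CPM untreated (log2 1.03, SE 0.20, adjusted p = 0.000806) and UTP4, a small subunit processing factor, at 24.4, 31.5 and 30.8 CPM pre-treated, against 43.8, 42.7 and 59.9 CPM untreated (log2 -0.74, SE 0.18, adjusted p = 0.00542); UTP4 did not pass without untreated replicate 3 (adjusted p = 0.0689). The higher genes numbered 1 without untreated replicate 2, and the lower ones ranged from 0 (without untreated replicate 3) to 5 (without pre-treated replicate 1), with 1 without pre-treated replicate 2, pre-treated replicate 3 or untreated replicate 2. Of 42 translation factors 2 rose and 1 fell, or 0 fell without pre-treated replicate 2, pre-treated replicate 3 or untreated replicate 2. YEF3, the fungal elongation factor, had 1565, 1498 and 1499 CPM pre-treated, against 1008, 1049 and 1184 CPM untreated (log2 0.49, SE 0.08, adjusted p = 6.34e-05), and DED1, a helicase of initiation whose count is uncertain because of an overlapping gene, had 658, 635 and 648 CPM pre-treated, against 463, 487 and 533 CPM untreated (log2 0.39, SE 0.08, adjusted p = 0.0017). Ribosome quality control genes had 1 call in 23, RQC2 (log2 0.38, SE 0.13, adjusted p = 0.0461), which ended without pre-treated replicate 1, 2 or 3 or untreated replicate 2 or 3 (adjusted p = 0.107, 0.133, 0.0879, 0.0866 and 0.185). Among the enzymes that charge tRNAs, 10 of 21 were higher and 0 lower (median 0.28), or 6 higher without pre-treated replicate 1, pre-treated replicate 2 or untreated replicate 2. THS1, for threonine, had 429, 399 and 384 CPM pre-treated, against 268, 261 and 295 CPM untreated (log2 0.56, SE 0.09, adjusted p = 5.96e-05), and GUS1, for glutamate, had 595, 579 and 599 CPM pre-treated, against 475, 427 and 452 CPM untreated (log2 0.39, SE 0.08, adjusted p = 0.0015). Against 13.3% of all genes, calls made up 7.5% of the biogenesis genes, 7.14% of the translation factors and 4.35% of the quality control genes. Of the enzymes that charge tRNAs, 47.6% were called. A difference between these lists was not tested.

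Nearly all calls among genes of dividing cells were higher. Histones package newly copied DNA, and 4 of 11 histone genes rose, with positive values for all 11 and a median of 0.31. Among all 5083 genes 2481 had positive values, and 8.5% were called higher. HTB2 had 131, 143 and 131 CPM in the pre-treated libraries, against 50.3, 52.4 and 63.3 CPM in the untreated ones. It rose most (log2 1.29, SE 0.13, adjusted p = 2.05e-08), followed by HTA2 (log2 0.93, SE 0.13, adjusted p = 5.91e-06), while HTA1 (0.20) and HHT1 (0.13) were not called, and histone genes come in close pairs. Of 27 genes of S phase 7 rose and 0 fell, such as RNR1, the large subunit of ribonucleotide reductase (314, 299 and 249.9 CPM pre-treated, against 174, 183 and 183 CPM untreated; log2 0.67, SE 0.10, adjusted p = 1.71e-05), and 4 rose without pre-treated replicate 2, pre-treated replicate 3 or untreated replicate 3. In the mitotic CLB2 cluster 11 of 18 rose and 0 fell (median 0.57), or 7 without pre-treated replicate 2 or untreated replicate 2. Higher calls thus made up 25.9% of the S phase list and 61.1% of the CLB2 cluster, against 8.5% of all genes. ALK1, a mitotic kinase, had 86.4, 84.8 and 77.0 CPM pre-treated, against 34.1, 39.3 and 39.3 CPM untreated (log2 1.13, SE 0.15, adjusted p = 1.63e-06), and BUD4, which marks the bud site, had 80.1, 75.9 and 75.7 CPM pre-treated, against 40.5, 42.0 and 42.8 CPM untreated (log2 0.88, SE 0.14, adjusted p = 4.12e-05). In daughter cells and early G1, DSE2, a wall-degrading protein, had 289, 297 and 255 CPM pre-treated, against 137, 147 and 162 CPM untreated (log2 0.91, SE 0.10, adjusted p = 1.52e-07), and the chitinase CTS1 had 1208, 1262 and 1163 CPM pre-treated, against 709.5, 751 and 839 CPM untreated (log2 0.66, SE 0.08, adjusted p = 1.32e-06), among 7 of 15 that rose. In that list 1 gene fell, or 0 with DESeq2 or without any 1 library except pre-treated replicate 1.

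Mating genes also held higher calls, with 5 of 7 a-specific genes up and 0 down (median 0.58), or 3 without pre-treated replicate 1 or 2 or untreated replicate 2 or 3. The 5 were 71.4% of that list, against 8.5% of all genes called higher. Of 11 haploid-specific and pheromone response genes 3 were higher, or 1 with DESeq2, and 36.4% of that list was called, against 13.3% of all genes. The kinase gene FUS3 of that list was lower (log2 -0.41, SE 0.12, adjusted p = 0.0228), but was not called with DESeq2 or without pre-treated replicate 1 or 2 or untreated replicate 1 or 2. Alpha pheromone itself, from MF(ALPHA)1, also had more footprints (log2 1.01, SE 0.14, adjusted p = 5.64e-06). STE2, the receptor for alpha pheromone, had 159.6, 179.9 and 141 CPM pre-treated, against 85.1, 91.6 and 79.5 CPM untreated (log2 0.90, SE 0.12, adjusted p = 2.33e-06), and BAR1, the protease that degrades that pheromone, had 224, 241 and 193 CPM pre-treated, against 111, 111 and 93.2 CPM untreated (log2 1.06, SE 0.11, adjusted p = 7.28e-08). HO, the mating-type switching endonuclease gene, had 23.7, 21.2 and 17.2 CPM in the pre-treated libraries, against 2.43, 5.51 and 3.42 CPM in the untreated ones. The untreated values lay near 3 counts (5.202-fold, log2 2.38, SE 0.34, adjusted p = 9.55e-06), and whether these reads come from an intact gene cannot be told from the counts.

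Cells of both groups also translated a plasmid-borne reporter. Its His coding feature, as the annotation names it, had 9780.2, 9253 and 9948 CPM in the pre-treated libraries, against 7681, 7375 and 8389.5 CPM in the untreated ones, which put it among the features with the most footprints. It rose by a modest amount (1.24-fold, log2 0.31, SE 0.07, adjusted p = 0.00385) and its RNA changed by 0.34 on the log2 scale (adjusted p = 0.0449).

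The largest gains and losses in CPM were mostly on other genes than the largest folds. The 432 higher genes took an average of 227834 CPM in the pre-treated libraries and 144231 CPM in the untreated ones, and the 242 lower genes 149685 CPM in the pre-treated libraries and 201066 CPM in the untreated ones; these sums restate the calls and carry no test. PDC1 gained the most, and PDC5, MET17, MET6, ENO2, CCW12, HPF1, MET3, SHM2, SAM2 and the His reporter were among the 12 largest gains. GPM1, a phosphoglycerate mutase, completed them (8624, 8487 and 8222 CPM pre-treated, against 7509.5, 7324 and 6754 CPM untreated; log2 0.23, SE 0.07, adjusted p = 0.0292), though GPM1 did not pass without pre-treated replicate 1, pre-treated replicate 2 or untreated replicate 3 (adjusted p = 0.0907, 0.134 and 0.148). HSP26 lost the most. PRB1, the vacuolar protease B, had 15080.1, 14389 and 13437 CPM in the pre-treated libraries, against 17521, 19605 and 18248 CPM in the untreated ones, and came next (log2 -0.37, SE 0.07, adjusted p = 0.000506). SED1, a wall protein of stationary cells, had 13718, 13591 and 12965 CPM pre-treated, against 14262, 17097 and 15483 CPM untreated, with a call (log2 -0.22, SE 0.07, adjusted p = 0.0485) that ended without any 1 library except untreated replicate 1. PIR3, a further wall protein (log2 -0.27, SE 0.08, adjusted p = 0.0167), lost its call without pre-treated replicate 2 or 3 or untreated replicate 2 (adjusted p = 0.112, 0.0992 and 0.0833).

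**Figure D4:**
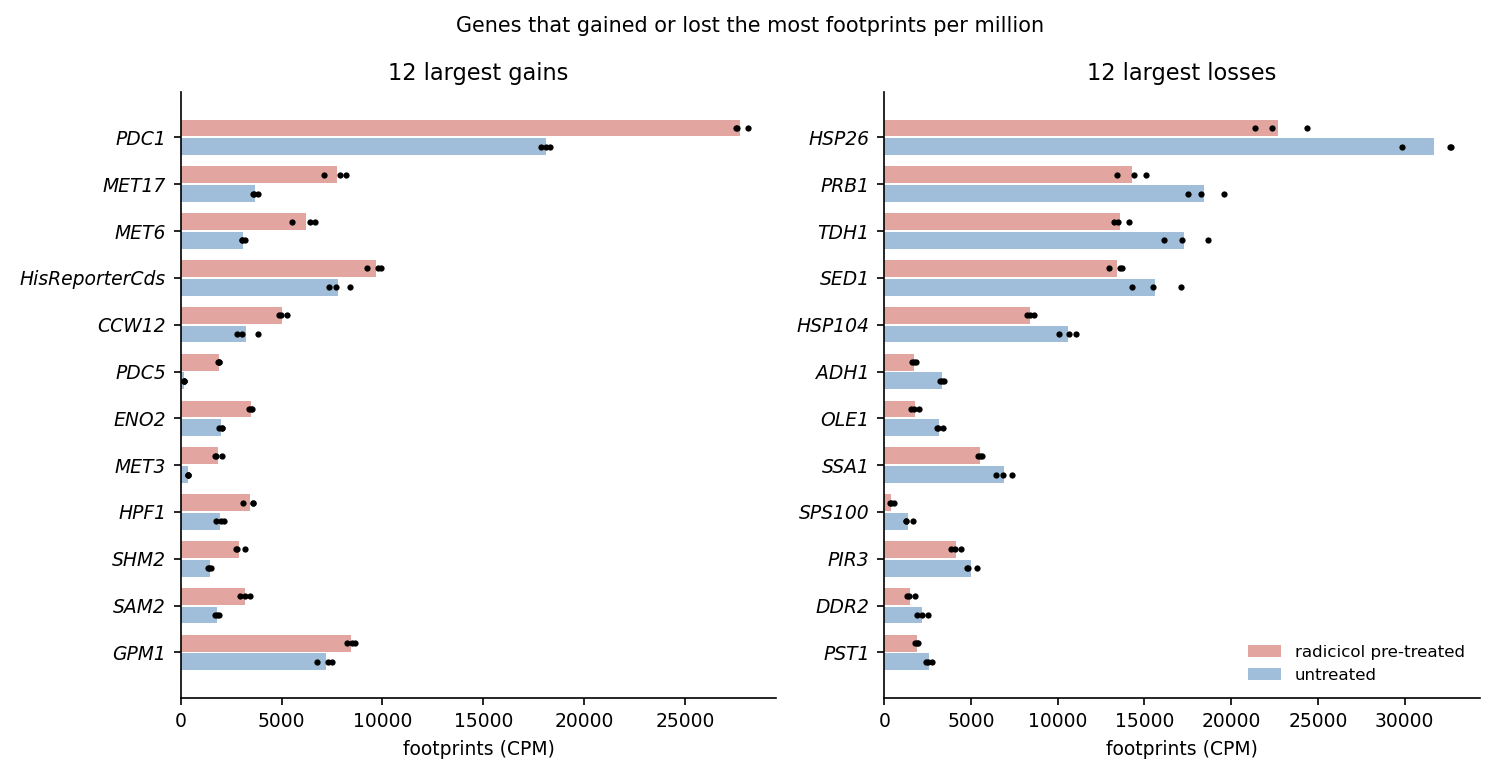
Footprints in CPM for the 12 called genes that gained the most (left panel) and the 12 that lost the most (right panel), with bars at the group means and points for single libraries, radicicol pre-treated (red) above untreated (blue). PDC1 and HSP26 dominate the 2 panels, with pre-treated PDC1 at 27542 to 28123 CPM and pre-treated HSP26 at 21395 to 24345 CPM.

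RNA libraries of both treatments, 3 a group, allowed each footprint change to be set beside the RNA change of the same gene. In RNA 730 of 5563 genes (13.1%) were called, 393 higher (7.06%) and 337 lower (6.06%). Of the 432 genes with more footprints, 253 were also called higher in RNA and 0 lower, and of the 242 with fewer, 129 were also called lower and 0 higher. Across 5062 genes the changes correlated at r = 0.70 (Spearman's rho 0.55); these points are genes, not replicates, and RNA and footprint libraries of a treatment may share cultures. The difference between the footprint and RNA changes was tested as an interaction term over 12 libraries, which called 1 of 5543 genes (0.018%), while 446 had an unadjusted p under 0.05.

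That gene was HAC1. Its RNA stood at 1120 CPM, 1111 CPM and 1140 CPM in the pre-treated libraries, against 1814 CPM, 1049 CPM and 1373 CPM in the untreated ones. The RNA groups overlapped (-0.33 on the log2 scale, adjusted p = 0.257), whereas the footprints rose in every pre-treated library, as given above. The footprint change exceeded the RNA change by 2.33 on the log2 scale (SE 0.26, adjusted p = 0.000587). Without the footprint and RNA libraries of untreated replicate 3 the value was 2.35 and the adjusted p 0.0891. The next genes by p did not pass. They were BDS1, with 1.39 (SE 0.28, adjusted p = 0.071), and GLT1, with 0.85 (SE 0.18, adjusted p = 0.071). HNT1, a nucleotide hydrolase gene chosen after its values were seen, had 0.89 (SE 0.20, adjusted p = 0.0989). JIP5, a ribosome assembly gene with a footprint change of -1.37 and an RNA change of 0.36, had -1.73 (SE 0.39, adjusted p = 0.0989), and SEC61 had 0.70 (SE 0.16, adjusted p = 0.119). GFD2, with 3.48, 2.74 and 4.31 CPM pre-treated, against 10.5, 17.9 and 13.7 CPM untreated, had fewer footprints (log2 -1.98, SE 0.37, adjusted p = 0.000334) and an RNA change of -0.39, and its difference of -1.59 did not pass either (SE 0.45, adjusted p = 0.262). The pre-treated values of GFD2 lay close to the level of 3 counts, so the size of its fall is uncertain.

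**Figure D5:**
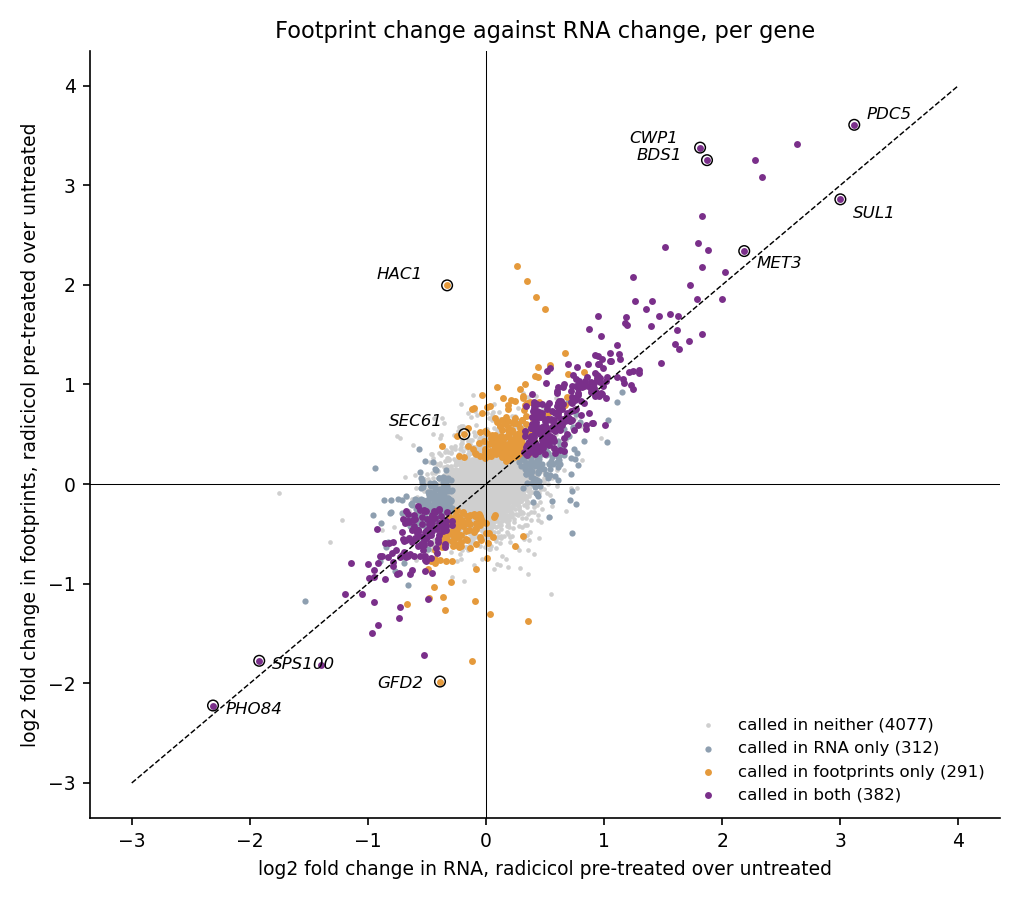
Log2 fold change in footprints against that in RNA (both radicicol pre-treated over untreated), 1 point per gene; the dashed line marks equal change. Genes called in both (382, purple) lie along the line, and HAC1 stands apart at -0.33 in RNA and 1.99 in footprints.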

How the data were processed

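Footprint and RNA libraries, 3 each from radicicol pre-treated and untreated cultures, were described by the submitters as filtered yeast, digested with RNase I and purified as monosomes on sucrose gradients (footprints), or poly(A)-selected and fragmented to a like size (RNA). The deposited values are raw counts per gene identifier in a table of the whole series, made by the authors; how that table was counted is not given in the sources used here. The submitters' processing notes name cutadapt 1.18 (an adapter trimmer), STAR 2.7.1a (a spliced aligner), SAMtools 1.9 and the genome build sacCer3. The per-library count files, used as an alternative, were made with featureCounts 1.6.2 on 1 strand, per the file headers, against the R64-1-1 annotation with a plasmid added. Footprint totals in the table were 98.3% to 99.1% of those in the per-library files.

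From these counts, footprint changes were tested with edgeR 4.0.16 in R 4.3.3 (TMM scaling, robust quasi-likelihood test, Benjamini-Hochberg adjustment over all genes tested, threshold 0.05) after its filter on low counts (minimum 10, total 15). The same was done for RNA, and for the difference of both changes over all 12 libraries. A fold change with its SE is from this fit; CPM values are per library. The design left the replicate number out as a term. Alternatives were DESeq2 1.42.0, upper-quartile scaling, other filters, a test against 1.2-fold, the per-library files, a block on the replicate number and the removal of each library in turn. For the difference of both changes, the footprint and RNA libraries of a replicate number in a group were removed together.

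Genes were named by rule: the 15 largest rises and falls among called genes whose groups did not overlap and whose higher group averaged 10 CPM, the 12 largest gains and losses in CPM, up to 4 called members of each gene list, and a fixed set of chaperone and regulator genes. The genes, lists and rule were chosen with earlier results of these data known. The result of 1 gene is not reported here.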

Additional observations from a re-analysis of the deposited data

Results flagged for a closer look

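HAC1, the gene of the transcription factor of the unfolded protein response, drew attention because its footprint change and its RNA change differed by the interaction test. The difference was 2.33 on the log2 scale (SE 0.26, edgeR's quasi-likelihood test, adjusted p = 0.000587), with footprints at 123, 148 and 121 CPM pre-treated, against 34.1, 31.7 and 32.5 CPM untreated and an RNA change of -0.33. Each replicate number of a group was left out in turn, its footprint and RNA libraries together, and the difference then lay between 2.13 and 2.497. Without untreated replicate 3 the difference did not pass (adjusted p = 0.0891). HAC1 shares its strand and part of its span with YFL032W, and the part of that overlap in the value was not tested.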

How the results depend on the processing

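In place of 674 genes, DESeq2 called 443, of which 440 were shared, and the test against 1.2-fold called 311; removing 1 library gave between 428 (without pre-treated replicate 2) and 678. Genes called lower (242) numbered 150 with DESeq2 and 140 to 255 with 1 library removed; those over 2-fold lower (22) numbered 12 with DESeq2 and 14 with at least 10 counts in every library. For the difference between footprint and RNA changes (1 call), 5 genes were called with no filter on low counts, 3 with at least 10 counts in every library and 2 with the replicate block. With the footprint and RNA libraries of a replicate number removed together, the calls ranged from 0 (without untreated replicate 3) to 3 (without pre-treated replicate 1). With TMM scaling, the summed difference in CPM (pre-treated minus untreated) was 12585 in place of 11625 for pyruvate decarboxylases, -1776 in place of -2102 for alcohol and acetate genes and -10387 in place of -12497 for the general stress list. The replicate block, on numbers that no source pairs, gave 598 calls, 589 of them shared, and same-numbered libraries did not deviate together (r = -0.13, -0.01 and -0.06 across 5083 genes), with no library correlating best with its own number. Of 205 named genes called, between 161 (without pre-treated replicate 2) and 205 (no filter) stayed called, and no result changed direction among those called. Across 56 lists and 13 alternatives, 620 of 728 counts of higher members and 639 of 728 of lower members stayed within 1.5 times. The causes of these shifts were not tested.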

Other observations

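Of the 674 genes called in footprints, 344 were in none of the lists, 198 higher and 146 lower, and the 10 largest changes each way were looked up after their values were seen. CSS1 (YIL169C, chromosome IX, 23119 to 26106), a secreted protein gene of unknown function, rose most, at 129, 135 and 88.0 CPM in the pre-treated libraries, against 12.2, 16.5 and 11.97 CPM in the untreated ones; its groups were far apart (8.45-fold, log2 3.08, SE 0.21, adjusted p = 6.15e-11 by edgeR's quasi-likelihood test). BNA3, an aminotransferase linked to kynurenine, had 799, 884 and 713 CPM pre-treated, against 291, 289 and 334 CPM untreated (log2 1.39, SE 0.10, adjusted p = 2.77e-11). SRY1, a dehydratase of hydroxyaspartate, had 337, 311 and 275 CPM pre-treated, against 110.3, 130.2 and 117 CPM untreated (log2 1.36, SE 0.11, adjusted p = 2.73e-10). GRX8, a glutaredoxin, had 117, 127 and 128 CPM pre-treated, against 43.8, 45.5 and 41.0 CPM untreated (log2 1.51, SE 0.13, adjusted p = 1.91e-09), and NIT1, a nitrilase-type gene, had 124, 146 and 97.9 CPM pre-treated, against 46.2, 48.9 and 42.8 CPM untreated (log2 1.41, SE 0.15, adjusted p = 1.11e-07). These 5 had more than 40 CPM on average in 1 or both groups, unlike INA1 (2.04), YIR042C (1.88), RMD6 (1.69), SDH9 (1.84) and NRM1 (1.31), which had few counts.

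Among the lower genes outside the lists, MNN14, of the family that adds mannose phosphate to glycoproteins, had 64.1, 56.8 and 57.3 CPM pre-treated, against 154, 114 and 138 CPM untreated (log2 -1.18, SE 0.13, adjusted p = 1.53e-07). ECM13 had 44.6, 27.4 and 44.3 CPM pre-treated, against 73.8, 84.1 and 93.2 CPM untreated (log2 -1.10, SE 0.16, adjusted p = 1.77e-05). YCL042W also fell (log2 -0.98, SE 0.20), but it overlaps the glucokinase gene GLK1 on its strand, which leaves the split of counts uncertain. TRF5, a poly(A) polymerase of nuclear RNA surveillance, had 7.66, 5.47 and 8.62 CPM pre-treated, against 13.8, 15.2 and 24.8 CPM untreated (log2 -1.27, SE 0.32, adjusted p = 0.0061), and did not pass without pre-treated replicate 2 (adjusted p = 0.0632) or untreated replicate 3 (adjusted p = 0.0779). JIP5 (log2 -1.37, SE 0.36), a ribosome assembly gene, did not pass without pre-treated replicate 2 (adjusted p = 0.0751) or untreated replicate 2 (adjusted p = 0.088).

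Calls in further lists are set against the 13.3% of all genes called. All 14 genes of the vacuolar proton pump had positive values (median 0.15), against 2481 of all 5083 genes. Of the 14, 3 were called higher (21.4%), or 1 with upper-quartile factors or without pre-treated replicate 2, untreated replicate 2 or untreated replicate 3. Among vacuolar proteases and autophagy genes, 2 of 15 rose and 2 fell (26.7% called), PRB1 and the autophagy kinase gene ATG1, and 1 fell without pre-treated replicate 2, pre-treated replicate 3, untreated replicate 1 or untreated replicate 3. In phospholipid and inositol genes 3 of 18 rose and 0 fell (16.7% called). Of 2 meiosis genes and 5 members of multicopy subtelomeric families with enough counts, 0 were called by edgeR's quasi-likelihood test or by DESeq2, and 1 of the meiosis genes and 1 of the subtelomeric ones had an unadjusted p under 0.05.

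On the plasmid, the LacZ coding feature had 13.2, 10.9 and 9.23 CPM pre-treated, against 4.87, 7.58 and 5.99 CPM untreated and did not pass (log2 0.82, SE 0.34, adjusted p = 0.122). The feature annotated as its UTR had 34.1, 36.9 and 39.4 CPM pre-treated, against 22.7, 17.9 and 17.1 CPM untreated (log2 0.94, SE 0.20, adjusted p = 0.00145), chosen after its values were seen. What the reporters encode beyond these feature names is not given in the sources used here.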
